A study of Homo sapiens with 4 samples.

Results

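Coagulation, fibrinolysis and complement genes were described in MHCC97H cells, a human line established from a hepatocellular carcinoma, with and without knockdown of HNRNPM, a heterogeneous nuclear ribonucleoprotein that regulates splicing. The 39 genes were taken by name (clotting factors and their inhibitors, the plasminogen system, complement and its regulators, without the fibrinogens). Values were analysed for 38 of them, among 39306 gene names in all. F11 was not analysed here, and every name in the tables had at least 1 read. RNA of 2 HNRNPM knockdown libraries (cells labelled sh-HNRNPM, a short hairpin RNA) was compared with RNA of 2 control libraries (cells labelled HNRNPM-wild type). No control hairpin is named, and the labels do not say whether the replicates of a group were grown separately, so p-values reflect how these libraries vary, and that variation may be technical. Effects of hairpin delivery cannot be told apart from loss of HNRNPM.

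Most clotting and complement proteins of plasma are made by hepatocytes and circulate as inactive precursors. Clotting starts when tissue factor on a cell surface meets factor VII, is amplified by the intrinsic factors, and ends with thrombin, while antithrombin, protein C and tissue factor pathway inhibitor hold it back and plasmin removes the clot. Complement is a parallel cascade in which C1 or other recognition molecules lead to cleavage of C3 and C5, and membrane proteins such as CD46, CD55 and CD59 protect the body's own cells.

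Ribosomal RNA-depleted total RNA was sequenced, and levels are given in RPKM, reads scaled to exon length and to the assigned reads of the library. The RPKM values corresponded to 12708165 and 11498663 reads in the knockdown libraries and to 18317579 and 19659106 reads in the control libraries. HNRNPM itself measured 21.8 and 20.4 RPKM in knockdown cells, against 51.3 and 51.6 RPKM in control cells (limma log2 fold change -1.35 ± 0.07 SE, adjusted p = 0.00270). Fold changes are limma estimates on log2(RPKM + 0.1) after scaling of the libraries, a scale that understates changes of genes at low levels. A gene was called when its Benjamini-Hochberg adjusted p over all 20221 tested genes was below 0.05. For any single gene the smallest p of an exact two-sided permutation test over these 4 libraries is 0.333, so each call leans on the spread that limma pools over genes. The levels of the 8 listed hepatocyte markers differed widely. APOH was the most abundant, at 17.1 and 14.9 RPKM in knockdown cells and 18.9 and 17.4 RPKM in control cells. TF had a mean of 10.9 RPKM in knockdown cells and 8.35 RPKM in control cells, and neither APOH nor TF was called. ALB measured 1.75 and 1.78 RPKM in knockdown cells and 5.35 and 6.28 RPKM in control cells, and was called lower. TTR did not pass the filter on low counts.

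Of the 38 genes, 31 passed that filter. Among these, 3 were called higher in knockdown cells (C3, C1R and F8) and 6 lower (C4BPA, KNG1, THBD, PLAU, CD46 and F2). Of all tested genes, 11.1% were called higher, 13.8% lower and 24.9% in either direction, so the calls among clotting and complement genes were near the background. The median log2 fold change was -0.06 over the 31 genes and -0.03 over all tested genes. After scaling, both knockdown libraries lay above both control libraries in 6 of the 31 genes and below them in 13, against 31.0% and 36.6% of all tested genes (67.6% in either direction). KNG1 passed the filter only through the control libraries and F10 only through the knockdown libraries. Without control replicate 1 the genes called higher fell to 1 (C1R), and without control replicate 2 those called lower fell to 3 (PLAU, C4BPA and CD46). With no filter on low counts, C1R was the only gene of the group called. With RPKM as deposited, 55.5% of calls over all genes were higher in place of 44.5%, while the same 3 and 6 clotting and complement genes were called.

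**Figure D1:**
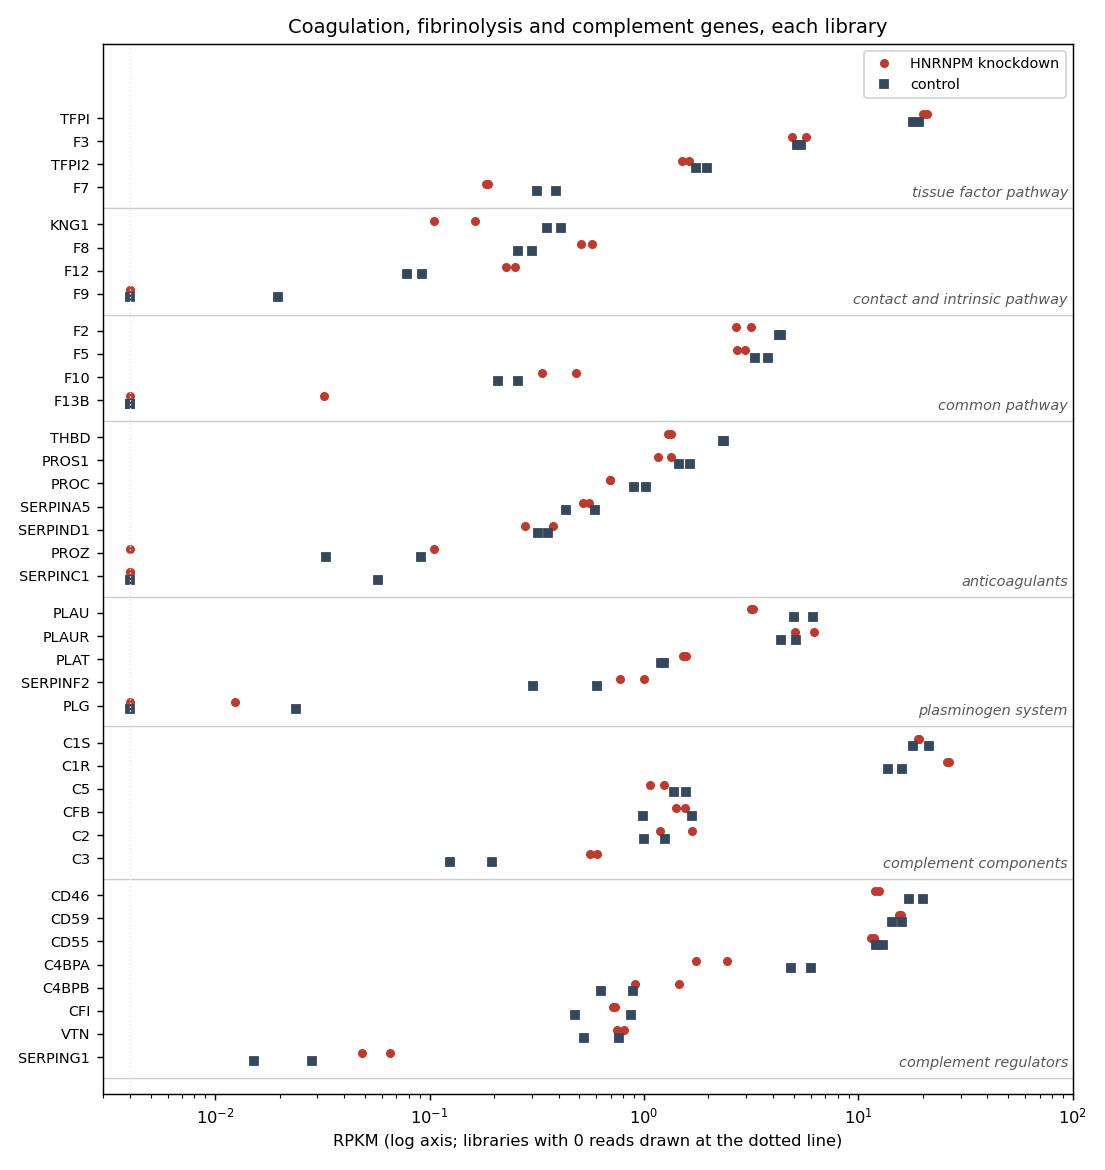
RPKM (log axis) of the 38 genes in each library, grouped by role and ordered by the control mean, with knockdown libraries as red circles above and control libraries as dark squares below; libraries with 0 reads are drawn at the dotted line. C1R, TFPI, C1S, CD59, CD46 and CD55 lie above 10 RPKM in every library, while F9, F13B, PLG, PROZ, SERPINC1 and SERPING1 lie near or at 0.

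The levels spanned a wide range. In order of the control mean, C1S (19.7 ± 2.30 RPKM), CD46 (18.7 ± 2.05), TFPI (18.6 ± 0.932), CD59 (15.2 ± 1.19), C1R (14.8 ± 1.49) and CD55 (12.6 ± 0.635; SD, n = 2 each) came first. C1S, CD46 and TFPI did not differ beyond their spread, nor did CD59 and C1R, while the steps below TFPI and below C1R were larger than the SD of either gene. In knockdown cells C1R ranked first with 26.2 ± 0.564 RPKM, followed by TFPI (20.5 ± 0.700), C1S (19.1 ± 0.0540), CD59 (15.6 ± 0.337), CD46 (12.2 ± 0.357) and CD55 (11.6 ± 0.196; SD, n = 2 each), and each step in this order was larger than the SD of either gene. Together with PLAU, these genes made up 75.4% and 74.8% of the summed RPKM of the 38 genes in knockdown cells and 72.3% and 72.4% in control cells. The sum itself was 145 and 144 RPKM in knockdown cells and 136 and 155 RPKM in control cells, so it overlapped between the groups.

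Many classical plasma factors of the hepatocyte were close to absent from the line in both groups. F9 (factor IX) had 0 reads in both knockdown libraries and 1 and 0 reads in the control libraries. SERPINC1 (antithrombin) had 0 reads in the knockdown libraries and 0 and 2 in the control libraries. PLG (plasminogen) had 1 and 0 reads in knockdown cells and 0 and 3 in control cells, and F13B, the carrier subunit of factor XIII, had a single read, in knockdown replicate 1. A count of 0 allows up to 3 reads, which in knockdown replicate 2 is 0.0938 RPKM for F9 and 0.148 RPKM for SERPINC1. PROZ (protein Z) had 0 to 3 reads per library and SERPING1 (C1 inhibitor) 1 to 3. F12 (factor XII) also stayed below the filter, with 8 and 8 reads in knockdown cells, against 4 and 5 in control cells. Its level was 0.227 and 0.251 RPKM in knockdown cells and 0.0789 and 0.0919 RPKM in control cells, and 399 of its exon bases overlap GRK6 on the other strand. Because of their low counts these genes were not tested, and no difference between the groups is claimed for them. For F12 both knockdown values lay above both control values.

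**Figure D2:**
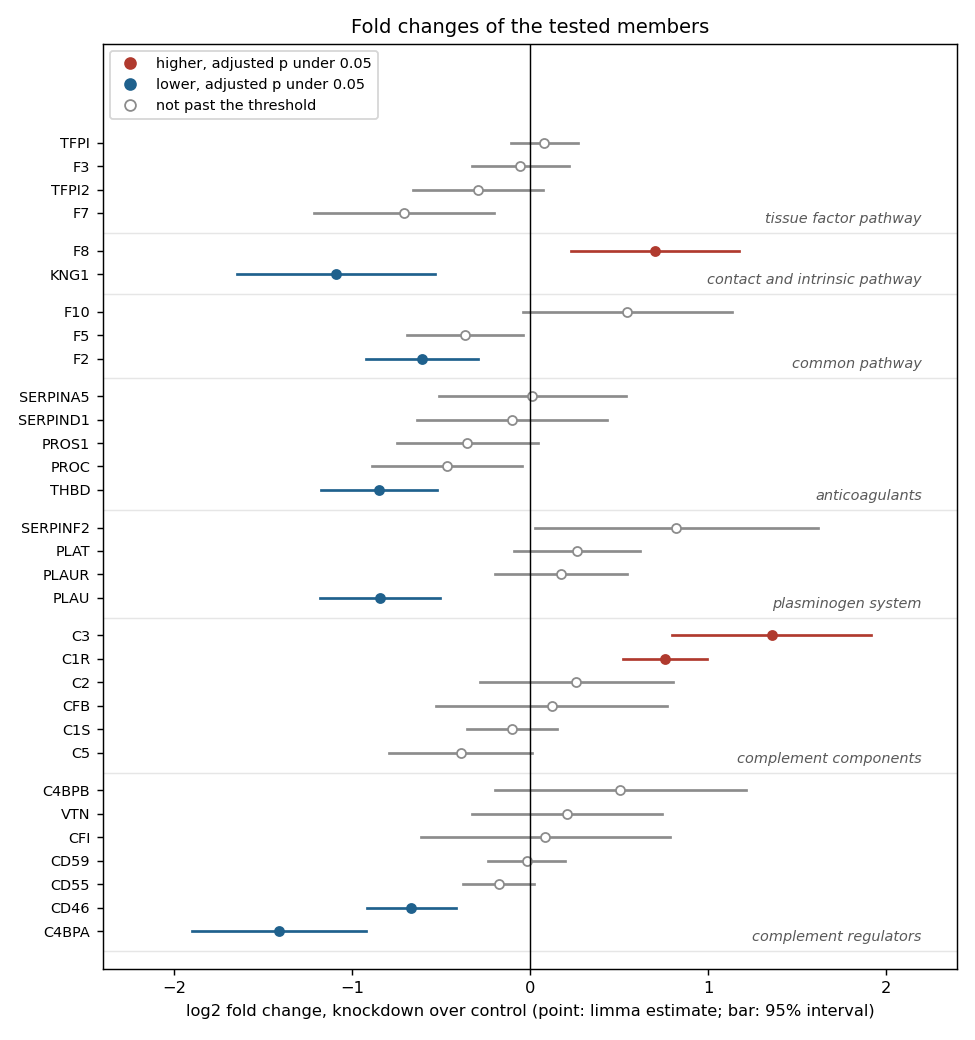
Log2 fold change, knockdown over control, of the 31 tested genes (point, limma estimate; bar, 95% interval), grouped by role. Filled red points were called higher (C3, C1R and F8), filled blue points lower (C4BPA, KNG1, THBD, PLAU, CD46 and F2), and open grey points did not pass the threshold.

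C4BPA and KNG1 were the genes called lower with a log2 change of at least 1. C4BPA encodes the alpha chain of the C4b-binding protein, which inhibits the classical pathway of complement, and measured 2.45 and 1.75 RPKM in knockdown cells, against 4.88 and 6.04 RPKM in control cells, from 76, 49, 218 and 290 reads. The control libraries were both above the knockdown libraries by a gap wider than the spread within either group. On the log2 scale the difference was -1.41 ± 0.20 (SE; limma adjusted p = 0.00856), a fold of 0.376 with a 95% interval of 0.268 to 0.528. C4BPA lies on chromosome 1 (GRCh38, positions 207104262 to 207144972, plus strand) and shares no exon bases with another annotated gene. KNG1 (chromosome 3, positions 186717276 to 186743954, plus strand) encodes kininogen, the cofactor of the contact system from which bradykinin is released. It measured 0.105 and 0.163 RPKM in knockdown cells, against 0.409 and 0.354 RPKM in control cells, with a log2 fold change of -1.09 ± 0.22 (SE; limma adjusted p = 0.0231). The values rest on few reads, 5 and 7 in knockdown cells against 28 and 26 in control cells. KNG1 passed the filter only through the control libraries, where it was high, and this favours a call of lower. In raw reads, the exact 95% counting intervals were 1.62 to 11.7 and 2.81 to 14.4 in knockdown cells. In control cells they were 18.6 to 40.5 and 17.0 to 38.1. These intervals are not scaled to depth, which was higher in the control libraries, so by themselves they do not separate the groups. KNG1 was not called without knockdown replicate 1 (limma adjusted p = 0.0804), control replicate 1 (0.0957) or control replicate 2 (0.0771). Of its exon bases 637 overlap RP11-573D15.8 on the other strand, and whether counting used strand is not stated.

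The bases upstream of these genes are shown because they are the called genes with a log2 change of at least 1 that have an entry in the RefSeq promoter table (GRCh38.p14). C3 has no entry. Each stretch ends before the transcription start and before the first base of the gene in the deposited tables, and capitals mark a match to a motif searched on both strands.
C4BPA, chr1:207103983-207104232, plus strand: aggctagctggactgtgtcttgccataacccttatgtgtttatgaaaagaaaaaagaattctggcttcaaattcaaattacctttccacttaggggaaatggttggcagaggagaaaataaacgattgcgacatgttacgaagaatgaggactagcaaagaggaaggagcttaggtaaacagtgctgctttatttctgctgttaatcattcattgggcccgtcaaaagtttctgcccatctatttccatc
KNG1, chr3:186717109-186717275, plus strand: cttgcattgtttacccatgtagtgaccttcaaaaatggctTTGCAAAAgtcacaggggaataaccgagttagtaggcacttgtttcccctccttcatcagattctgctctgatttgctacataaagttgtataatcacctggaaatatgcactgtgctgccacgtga
The motifs were TATAAA (the TATA box), TGANTCA (AP-1), CAAAGTCCA (HNF4), TTGCNNAA (C/EBP) and the HNF1 palindrome, in the 250 bases before each of 44 RefSeq start sites of 31 of the 38 genes. The capitals in KNG1 are a C/EBP match that begins 210 bases before its RefSeq start. The C4BPA stretch held no exact match to any of the motifs, and near matches were not searched. A C/EBP match was present at 18.2% of these start sites, those of KNG1, C1R, PLAU, PLAUR, CD59, PROC and VTN, and at 9.05% of all 35116 start sites. For AP-1 the shares were 9.09% (F3, TFPI2, PLAUR and CD59) and 6.57%, and for the TATA box 6.82% (F3, CFB and F13B) and 10.7%. An HNF4 match was present before 1 gene, PROZ (0.325% of all start sites), and an HNF1 match before none (0.00570%). Overlapping motifs were not merged, and these counts describe letters, not binding.

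**Figure D3:**
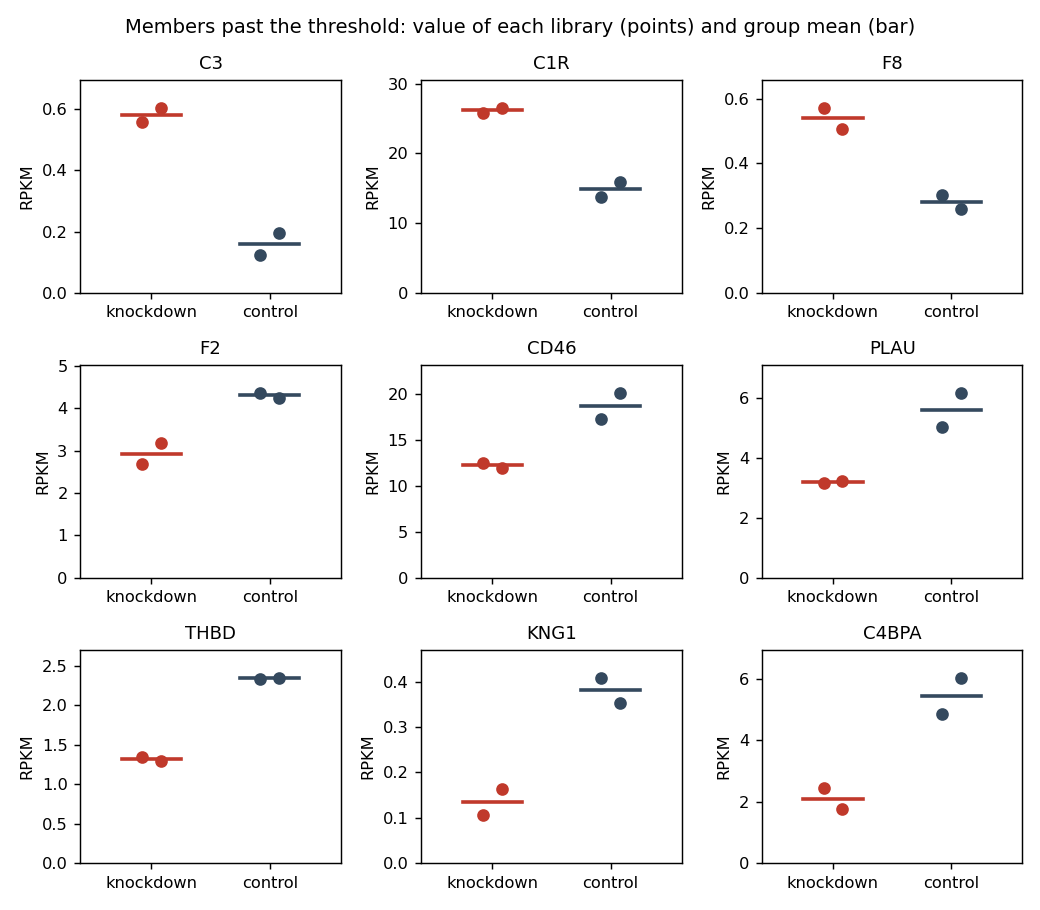
RPKM of each library (points) and group mean (bar) for the 9 called genes, knockdown on the left and control on the right, each panel starting at 0. In every panel the groups are separate; C3, C1R and F8 are higher in knockdown cells and the other panels lower.

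In the tissue factor pathway none of the 4 genes was called. F3 (tissue factor, the cell-surface trigger of clotting) measured 5.72 and 4.93 RPKM in knockdown cells, against 5.16 and 5.41 RPKM in control cells, and the groups overlapped. Its 95% interval of the fold was 0.796 to 1.16. TFPI, which blocks the tissue factor complex, measured 21.0 and 20.02 RPKM in knockdown cells, against 17.9 and 19.2 RPKM in control cells, and after scaling the libraries overlapped (fold 1.06, interval 0.927 to 1.21). TFPI2, a related inhibitor that also acts on plasmin, had a log2 fold change of -0.29 ± 0.15 (SE; limma adjusted p = 0.194). F7 (factor VII, the partner of tissue factor) measured 0.187 and 0.183 RPKM in knockdown cells, against 0.316 and 0.389 RPKM in control cells. Both knockdown libraries were lower, with 9 and 8 reads against 22 and 29, and F7 narrowly missed the threshold (log2 fold change -0.71 ± 0.20 SE, limma adjusted p = 0.0546).

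Of the contact and intrinsic factors, F8 was called higher. F8 (factor VIII, the cofactor of factor IX; chromosome X, positions 154835788 to 155026940, minus strand) measured 0.573 and 0.507 RPKM in knockdown cells, against 0.301 and 0.259 RPKM in control cells, from 70, 56, 53 and 49 reads. Both knockdown libraries were higher, by 0.70 ± 0.19 on the log2 scale (SE, limma adjusted p = 0.0472). FUNDC2 on the other strand shares 161 (1.68%) of the F8 exon bases, and whether counting used strand is not stated. The call sits at the threshold and was lost when any 1 of the 4 libraries was left out (limma adjusted p = 0.169 and 0.105 without knockdown replicates 1 and 2, 0.111 and 0.164 without control replicates 1 and 2).

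In the common pathway F2 was called lower. F2 (prothrombin; chromosome 11, positions 46719180 to 46739506, plus strand) measured 2.68 and 3.17 RPKM in knockdown cells, against 4.37 and 4.25 RPKM in control cells, with a fold of 0.656 and a 95% interval of 0.527 to 0.817 (limma adjusted p = 0.0245). The call was lost without knockdown replicate 1 (limma adjusted p = 0.0889), control replicate 1 (0.0880) or control replicate 2 (0.0865). F5 (factor V, the cofactor of factor X) measured 2.73 and 2.96 RPKM in knockdown cells, against 3.30 and 3.78 RPKM in control cells, which did not pass (log2 fold change -0.37 ± 0.13 SE, limma adjusted p = 0.0934). By limma-voom on the recovered reads F5 was called lower (adjusted p = 0.0112). F10 (factor X) measured 0.334 and 0.480 RPKM in knockdown cells, against 0.209 and 0.259 RPKM in control cells, from 9 to 13 reads per library, and did not pass (log2 fold change 0.54 ± 0.24 SE, limma adjusted p = 0.145).

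Among the anticoagulants THBD was called lower. THBD (thrombomodulin, the membrane receptor that turns thrombin into an activator of protein C; a single exon on chromosome 20, positions 23045633 to 23049741, minus strand) measured 1.34 and 1.29 RPKM in knockdown cells, against 2.34 and 2.35 RPKM in control cells. The replicates of each group were close together and the groups far apart, with a fold of 0.555 and a 95% interval of 0.442 to 0.697 (limma adjusted p = 0.0113). Without control replicate 2 it missed the threshold (limma adjusted p = 0.0557). PROC (protein C) and PROS1 (protein S, its cofactor) were lower in both knockdown libraries without passing. PROC measured 0.694 and 0.697 RPKM in knockdown cells, against 0.897 and 1.02 RPKM in control cells (limma adjusted p = 0.0966). PROS1 measured 1.33 and 1.16 RPKM in knockdown cells, against 1.45 and 1.64 RPKM in control cells (limma adjusted p = 0.158). SERPIND1 (heparin cofactor II) and SERPINA5 (protein C inhibitor) overlapped between the groups, with log2 fold changes of -0.10 ± 0.21 and 0.01 ± 0.21 (SE).

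Thrombomodulin is a known endothelial gene, and the endothelial markers were mixed. Of 5 such markers 3 were tested, of which PECAM1 and CDH5 were called lower. KDR was not called, at 0.754 and 1.01 RPKM in knockdown cells and 0.637 and 0.772 RPKM in control cells. Their summed level was 6.84 and 7.32 RPKM in knockdown cells, against 9.58 and 10.2 RPKM in control cells, most of it PECAM1. VWF stayed below the filter at 0.0454 to 0.0734 RPKM, as did TEK, at 0.0655 and 0.127 RPKM in knockdown cells and 0.0227 and 0.0318 RPKM in control cells. The fibroblast markers, whose cell type is a known source of C1R and C3, were called higher in 3 of 5 (LUM, PDGFRB and COL1A1), of which PDGFRB and COL1A1 passed the filter only through the knockdown libraries. Their sum was 3.62 and 3.41 RPKM in knockdown cells, against 1.26 and 1.44 RPKM in control cells, most of it LUM. In the cholangiocyte list 3 of 4 were called higher (KRT7, KRT19 and SOX9), with sums of 284 and 296 RPKM in knockdown cells, against 190 and 181 RPKM in control cells. Most of each sum was KRT19. For these short lists the background is 11.1% of all tested genes called higher, 13.8% lower and 24.9% in either direction. The hepatocyte list had 2 of 7 tested genes called lower (ALB and APOB). In it APOA1, which passed the filter only through the knockdown libraries, and TF had estimates above 0. Neither was called (log2 fold changes 0.83 and 0.32, limma adjusted p = 0.0629 and 0.0895). That list had sums of 35.2 and 34.2 RPKM in knockdown cells, against 39.4 and 38.96 RPKM in control cells. In the myeloid list CD14, the only one of 5 genes tested, passed the filter only through the control libraries and was called lower, with 3 and 3 reads in knockdown cells against 29 and 27 in control cells. PTPRC was at 0 reads in 3 libraries. Of the platelet list no gene was called, and GP9 was at 0 reads in 3 libraries. All libraries are of the same cultured line, so these lists name known marker genes and do not count cells of those types. The part of these shifts in the results on clotting and complement genes was not tested. Fewer cells of the line that express a gene cannot be told apart from less RNA per cell.

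In the plasminogen system PLAU was called lower and its receptor was not called. PLAU (urokinase, which activates plasminogen at the cell surface; chromosome 10, positions 73909177 to 73917497, plus strand) measured 3.15 and 3.24 RPKM in knockdown cells, against 5.02 and 6.17 RPKM in control cells. Both control libraries were higher, with a fold of 0.557 and a 95% interval of 0.441 to 0.704 (limma adjusted p = 0.0124), and the call held with any 1 library left out. Of its exon bases 916 (31.1%) overlap C10orf55 on the other strand. PLAUR, the urokinase receptor, measured 5.05 and 6.19 RPKM in knockdown cells, against 4.35 and 5.14 RPKM in control cells, and after scaling the groups overlapped (fold 1.13, interval 0.873 to 1.46). PLAT, the tissue-type activator, measured 1.52 and 1.58 RPKM in knockdown cells, against 1.24 and 1.20 RPKM in control cells, and did not pass (limma adjusted p = 0.222). SERPINF2 (antiplasmin, the plasmin inhibitor) measured 0.771 and 1.0 RPKM in knockdown cells, against 0.302 and 0.607 RPKM in control cells. Its log2 fold change of 0.82 ± 0.32 (SE; limma adjusted p = 0.113) passed by limma-voom (adjusted p = 0.0418).

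Of the 6 complement components C3 and C1R were called higher. C3, the central component on which all activation routes meet (chromosome 19, positions 6677704 to 6730562, minus strand), measured 0.557 and 0.606 RPKM in knockdown cells, against 0.125 and 0.195 RPKM in control cells. From 59, 58, 19 and 32 reads, its fold was 2.56 with a 95% interval of 1.74 to 3.77 (limma adjusted p = 0.0132). At this level the added 0.1 RPKM lowers the fold, and C3 had a log2 fold change of 1.80 by limma-voom, against 1.36 here. Without control replicate 1 it missed the threshold (limma adjusted p = 0.0509), and the level stayed below 1 RPKM in every library. C1R, a protease of the C1 complex (chromosome 12, positions 7080209 to 7092607, minus strand), measured 25.8 and 26.6 RPKM in knockdown cells, against 13.8 and 15.9 RPKM in control cells. Its fold was 1.69 with a 95% interval of 1.43 to 1.99 (limma adjusted p = 0.00689), and it passed under each of the 14 alternatives tried. C1R shares 672 exon bases with C1RL on the same strand, and C1RL itself was not called (limma adjusted p = 0.470). C1S, the other protease of the complex, measured 19.1 and 19.0 RPKM in knockdown cells, against 18.0 and 21.3 RPKM in control cells, and the groups overlapped. The ratio of C1R to C1S was therefore 1.35 and 1.40 in knockdown cells, against 0.765 and 0.747 in control cells, a pair singled out after its values were seen.

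The remaining components were not called. C5, from which the lytic complex starts, had a log2 fold change of -0.39 ± 0.16 (SE; limma adjusted p = 0.132), and limma-voom called it lower (adjusted p = 0.0400). C2 and CFB (factor B), the proteases of the classical and alternative convertases, had log2 fold changes of 0.26 ± 0.22 and 0.12 ± 0.26 (SE). These adjacent genes share 38.7% and 45.5% of their exon bases with other annotated genes, mostly with XXbac-BPG116M5.17, so their values are uncertain.

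Among the complement regulators, besides C4BPA, CD46 was called lower. CD46 (membrane cofactor protein, with which factor I inactivates C3b and C4b; chromosome 1, positions 207752057 to 207795513, plus strand) measured 12.5 and 11.97 RPKM in knockdown cells, against 17.2 and 20.1 RPKM in control cells. The fold was 0.630 with a 95% interval of 0.530 to 0.748 (limma adjusted p = 0.0104), and the call held with any 1 library left out. CD59, which blocks the membrane attack complex, measured 15.9 and 15.4 RPKM in knockdown cells, against 14.3 and 16.04 RPKM in control cells (fold 0.986, interval 0.850 to 1.14). CD55 (decay-accelerating factor) was not called either, with a log2 fold change of -0.18 ± 0.08 (SE; limma adjusted p = 0.158). The ratio of CD46 to CD59 was 0.786 and 0.778 in knockdown cells, against 1.20 and 1.26 in control cells, again a pair singled out after the fact.

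C4BPB, the beta chain that joins protein S to the C4b-binding protein, measured 0.904 and 1.46 RPKM in knockdown cells, against 0.627 and 0.885 RPKM in control cells. The knockdown libraries lay far apart, the groups overlapped after scaling, and the log2 fold change of 0.51 ± 0.28 (SE) did not pass (limma adjusted p = 0.237). The ratio of C4BPA to C4BPB was 2.71 and 1.20 in knockdown cells, against 7.77 and 6.83 in control cells. CFI (factor I) and VTN (vitronectin, which binds the lytic complex) overlapped between the groups, with log2 fold changes of 0.08 ± 0.28 and 0.21 ± 0.21 (SE).

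Other genes of the same pathways were taken as a list of 63, of which 51 were analysed and 35 tested. Of these 6 were called higher and 11 lower, with a median log2 fold change of -0.06, against 11.1% and 13.8% of all tested genes. Leaving out 1 library gave 0 to 4 higher and 5 to 10 lower genes. FURIN, a protease that cleaves precursor proteins, fell to 7.14 and 7.56 RPKM in knockdown cells, against 12.5 and 14.3 RPKM in control cells (log2 fold change -0.92 ± 0.10 SE, limma adjusted p = 0.00585). GGCX, the carboxylase that modifies the vitamin K-dependent factors, measured 5.96 and 5.86 RPKM in knockdown cells, against 8.83 and 9.31 RPKM in control cells (limma adjusted p = 0.00699). F2RL2, a protease-activated receptor, measured 2.98 and 2.97 RPKM in knockdown cells, against 5.67 and 5.12 RPKM in control cells (limma adjusted p = 0.00625). CLU (clusterin, which binds the lytic complex) measured 38.4 and 39.2 RPKM in knockdown cells, against 56.1 and 64.8 RPKM in control cells (limma adjusted p = 0.00772).

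The subgroups of this list are short and were chosen with earlier results known. Over all tested genes 13.8% were called lower and 11.1% higher. By subgroup, the vitamin K and factor export genes had 3 of 6 lower (FURIN, GGCX and LMAN1) and 1 higher (VKORC1). The plasminogen and protease receptors had 4 of 8 lower (F2RL2, LRP1, F2R and PROCR) and 2 higher (S100A10 and PLGRKT). The other complement genes had 4 of 15 lower, among them CLU and C1QBP, and 2 higher (MBL2 and C5AR1). Of 5 other inhibitors tested, SERPINE2 was called higher and none lower. Among the other contact and fibrin genes, KLKB1 was the only one tested and did not pass.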

How the data were processed

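RNA-seq values of 2 HNRNPM knockdown and 2 control libraries of MHCC97H were used. The authors deposited 1 table per library with RPKM per gene name. The submitters' processing notes list StringTie 1.3.2, edgeR 3.12.1, Subread 1.5.1, featureCounts and Trimmomatic 0.36. The aligner, any collapsing of molecular identifiers, and whether counting used strand are not stated there or in the labels. The notes name mm9, but of 26367 names shared with GENCODE 29 (GRCh38), 99.9% matched in chromosome and 93.6% in both coordinates. Every RPKM value was a whole multiple of 1 read within 0.01 of a read, which gave the reads per gene. RPKM was divided by TMM factors (trims of 30% and 5%) and fitted as log2(RPKM + 0.1) with limma 3.58.1 (R 4.3.3), trend, group only, with 2 residual and 3.56 prior degrees of freedom. Genes were tested with the equivalent of 10 reads at median depth in 2 libraries and 15 reads in all. Counting intervals and the limit of 3 reads cover counting error only. The procedure was also run on simulated data with a common spread for all genes and few changed genes, a setting unlike these data. Its outcome is not reported here, and no call rests on it.

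The genes and lists were chosen with earlier results of these data known. Every gene of the group was accounted for. Values by library were given for those called, those with a log2 change of at least 0.5 and the most abundant of each role, and, among other pathway genes, for those with the smallest adjusted p; further names and the ratios were added after values had been seen. Some other pathway genes are not reported here. The 14 alternatives changed the scaling, pseudocount, filter, test, length trend, libraries and replicate block. Library factors and the filter were kept from all 4 libraries when 1 was left out.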

Additional observations from a re-analysis of the deposited data

How the results depend on the processing

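With no filter, 1806 genes in all were called (5032 in the main analysis), with 1 gene of the group higher and 0 lower, and 0 and 4 other pathway genes; C1R alone of the group stayed past the threshold. A filter of RPKM of at least 1 in 2 libraries left 19 genes of the group, without KNG1, C3 and F8, and called 1 higher, and 3 other pathway genes higher. Leaving out 1 library gave 2513 to 3218 genes in all, 1 to 2 higher and 3 to 6 lower in the group, and 0 to 4 higher and 5 to 10 lower among other pathway genes. F8 was also lost with a pseudocount of 0.01, robust moderation and the replicate block (limma adjusted p = 0.0536, 0.0511 and 0.0635). Uncalled genes changed sign as follows: F3 to 0.0062 with RPKM as deposited; CD59 to 0.0026 with median-of-ratios scaling, 0.043 with RPKM as deposited and 0.050 with the length trend removed. With 1 library left out the range was -0.15 to 0.041 for F3, -0.11 to 0.069 for CD59, -0.23 to 0.026 for C1S, -0.18 to 0.21 for SERPINA5, -0.27 to 0.068 for SERPIND1, -0.021 to 0.44 for VTN, -0.29 to 0.46 for CFI and -0.24 to 0.48 for CFB. The cause of these changes was not tested. The replicate block called 5129 genes, 2 higher and 6 lower in the group; deviations of same-numbered libraries correlated with r = 0.0628 across genes, so the numbers are not shown to pair the libraries. The 7 genes below the filter had at most 8 reads in a library and were not tested.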

Other observations

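In some cases, genes of the group that lie on the same stretch of a chromosome had estimates of both signs. On chromosome 13, F7 (positions 113105788 to 113120681) ends shortly before F10 (113122814 to 113149529), both on the plus strand. Their log2 fold changes were -0.71 ± 0.20 and 0.54 ± 0.24 (SE), neither past limma's threshold (adjusted p = 0.0546 and 0.145), from 8 to 29 reads per library. On chromosome 1, C4BPB (207088842 to 207099993), C4BPA (207104262 to 207144972), CD55 (207321508 to 207386804) and CD46 (207752057 to 207795513) lie in this order on the plus strand, the last ones further apart. C4BPA and CD46 were called lower, while C4BPB and CD55 were not called (log2 fold changes 0.51 ± 0.28 and -0.18 ± 0.08 SE). On chromosome 12, C1S was not called and C1R was called higher (log2 fold changes -0.10 ± 0.10 and 0.76 ± 0.09 SE). The adjoining C2 and CFB on chromosome 6 had estimates of the same sign, and neither was called (0.26 ± 0.22 and 0.12 ± 0.26 SE). Differences between the genes of a stretch were not tested.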
